A study of Pimephales promelas with 15 samples.

Results

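Fathead minnow larvae (Pimephales promelas, a freshwater fish of toxicity testing) were compared between a medium and a low parental dose of HBCD. The comparison took in 10 of the 15 libraries of the study, 5 of medium HBCD and 5 of low HBCD, chosen by their labels alone. The other 5 libraries, from larvae of parents on solvent only, entered the estimate of the spread and are given beside the doses. Parents of the medium group ate food with 36.4 mg HBCD per kg and their larvae held 1.77 mg per kg, against 11.5 mg per kg food and 0.576 mg per kg larva in the low group. The medium dose was therefore 3.17 times the low dose in food and 3.07 times in larvae. Adults were fed for 49 days, their eggs were collected during that period and reared in clean water, and each library held a pool of 20 whole animals taken 7 days after fertilization. The labels call them embryos and the design text larvae. Whether the pools of a group had different parents is not stated. The p-values set the difference between the doses against the spread among pools, and speak for these pools only. If the pools of a group shared parents, dose and parents cannot be told apart.

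HBCD (hexabromocyclododecane) is a brominated flame retardant used mainly in polystyrene foam. It dissolves in fat, accumulates in tissue and passes from the mother into the yolk, so that a larva that has never been in contaminated water can carry it. In fish and other vertebrates it has been studied chiefly for effects on thyroid hormone and on liver enzymes that break down foreign compounds. Both sides of the present comparison were exposed. It asks which transcripts depended on the size of the dose, and not whether exposure had an effect.

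Abundance was given per row, each row carrying a protein identifier of UniProt or RefSeq. A target here is an identifier, with all rows that share it summed. A target on several rows may therefore pool separate transcripts. Of 14279 distinct identifiers, 0 matched the gene table at hand, and no other source of names was used. No gene name or function is therefore attached to a target here. The species of the proteins behind the identifiers was not looked up. For the same reason no list of genes (thyroid axis, xenobiotic response, yolk, oxidative stress) or marker of a tissue was tested. Up to 2 targets in each direction are named by identifier, and every other one by its direction and the rank of its p-value within it. Levels are CPM (counts per mega-count of a library, scaled with TMM factors), which are not corrected for length. Differences were tested only between libraries of 1 target. Where levels of targets are set side by side, or a target is called abundant or scarce, counts are meant. Such counts can also depend on length and on the number of rows summed. In RNA from whole bodies, fewer cells of a type and less RNA per cell cannot be told apart.

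Library totals were 12.6 to 26.4 M (mega-counts) in medium HBCD and 12.8 to 35.2 M in low HBCD (17.5 ± 5.96 M and 21.5 ± 9.47 M, SD, n = 5 each), a difference smaller than the spread (exact permutation test, two-sided, p = 0.524). Solvent control replicates A to E held 13.2, 13.5, 13.0, 49.3 and 58.4 M. Control replicates D and E were thus deeper than any library compared, and counts are also given without them. The number of targets with a count was 13487 ± 101 in medium and 13542 ± 111 in low HBCD (SD, n = 5 each, exact permutation p = 0.405). The 10 most counted targets of a library took 8.82 ± 0.848% of its counts in medium and 7.60 ± 1.05% in low HBCD (SD, n = 5 each, exact permutation p = 0.0556). The adjusted p over these 3 measures was 0.167 at the lowest, and 5 against 5 libraries allow no p below 0.00794. The TMM factors did not overlap, at 0.980 to 0.985 in medium and 0.993 to 1.04 in low HBCD. Their part in the results was not tested, and other scalings gave 20 and 22 targets past the threshold.

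The 10 libraries did not separate cleanly by dose. The distance between a pair of libraries, taken as the SD over the 13283 tested targets of their log2 CPM difference, was 0.660 to 0.986 within medium HBCD (median 0.916, 10 pairs), 0.610 to 1.004 within low HBCD (median 0.889, 10 pairs) and 0.693 to 1.002 between the doses (median 0.890, 25 pairs). The closest library was one of the same dose for 5 of 5 medium and 4 of 5 low libraries. Low HBCD replicate E was closest to medium HBCD replicate D. On the first principal component of the 10 libraries, which held 19.9% of the variance, medium HBCD replicates B and C lay at 51.2 and 49.8, while the other 3 medium libraries lay between -24.4 and -4.80 and the low libraries between -41.0 and 24.2. Low HBCD replicate B lay at -56.7 on the second component (15.5% of the variance), and medium HBCD replicate A and low HBCD replicate E lay at 55.2 and -52.9 on component 3 (13.1%). Libraries of both doses thus stood apart from the rest of their own group. Medium HBCD replicates B and C did so on the component of largest variance, and counts are also given without them. The libraries at short distances were also deep ones: medium HBCD replicates D and E held 26.4 and 20.7 M, and low HBCD replicates C and D held 26.3 and 35.2 M.

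**Figure D1:**
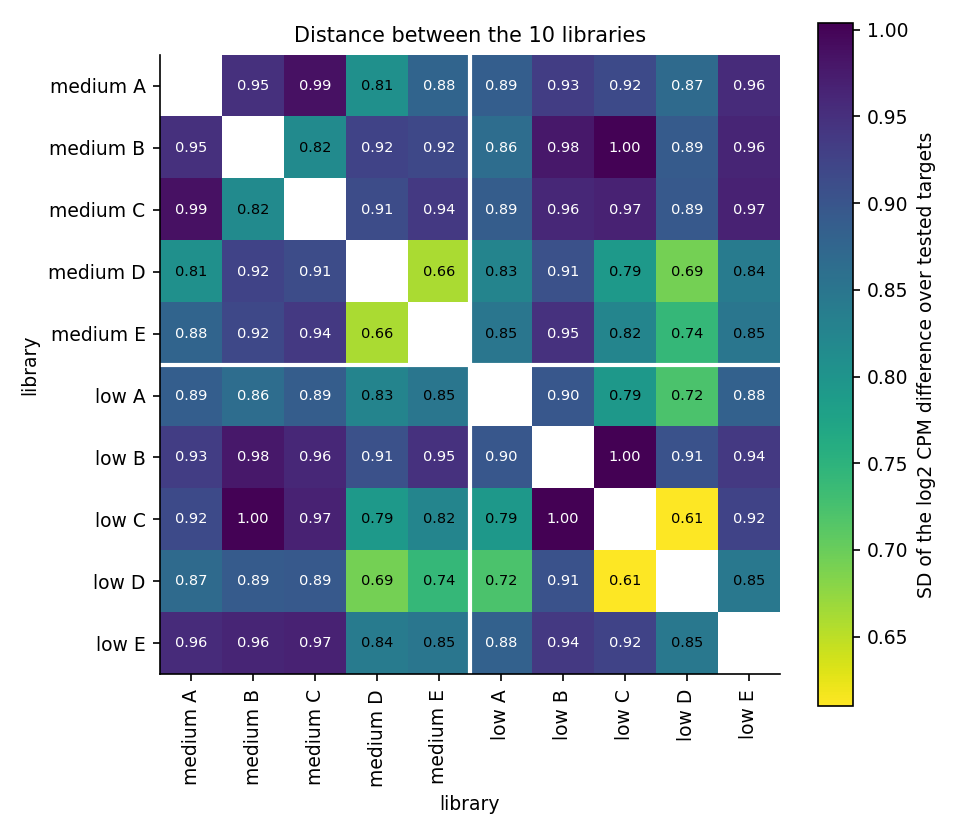
Distance between each pair of the 10 libraries (SD over tested targets of the log2 CPM difference, printed in each cell and shown by colour), with medium HBCD first and low HBCD after it. Pairs within a dose spanned 0.610 to 1.004 and pairs between the doses 0.693 to 1.002, so the white lines between the doses do not mark a step in colour.

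Between medium and low HBCD, 11 of 13283 targets rose and 9 fell in medium HBCD (edgeR quasi-likelihood test, Benjamini-Hochberg adjusted p under 0.05). These were 0.0828% and 0.0678% of the targets, 0.151% in all. Most differences were modest: 7 of the 11 higher and 4 of the 9 lower targets changed by less than 1 on the log2 scale. The median log2 fold change was 0.61 among the higher and -1.08 among the lower targets, while the median size over all 13283 targets was 0.12. Over all targets the median log2 fold change was -0.01, with 6380 positive and 6903 negative.

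The same comparison held 1170 targets at an unadjusted p under 0.05 (8.81%), 598 higher (4.5%) and 572 lower (4.31%), where 664.15 would be reached on average if no target differed. How far such a count scatters around that value when targets vary together was not tested. In 250 targets (1.88%) the 5 medium libraries lay all above (135, or 1.02%) or all below (115, or 0.866%) the 5 low ones. This held for all 20 called targets, as a small p would favour. The adjusted p of the 20 ran from 0.0119 to 0.0492 (edgeR), 8 of them lay above 0.03, and the next target stood at 0.0505.

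The count of 20 depended on single libraries and on the fit. It was 12 without medium HBCD replicate A, 9 without medium HBCD replicate D, 10 without low HBCD replicate D, 12 without solvent control replicate C and 13 without solvent control replicate D, while it was 37 without medium HBCD replicates B and C, 13 of them among the 20. Without low HBCD replicate B or E, which also stood apart, it was 20 and 22. Of these, 12 and 15 were among the 20 called with all libraries. With only the 10 libraries of the 2 doses in the fit, 9 targets were called, and 5 of these were among the 20. DESeq2 called 148 targets (1.09% of those to which it gave an adjusted p), and all 20 were among them.

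**Figure D2:**
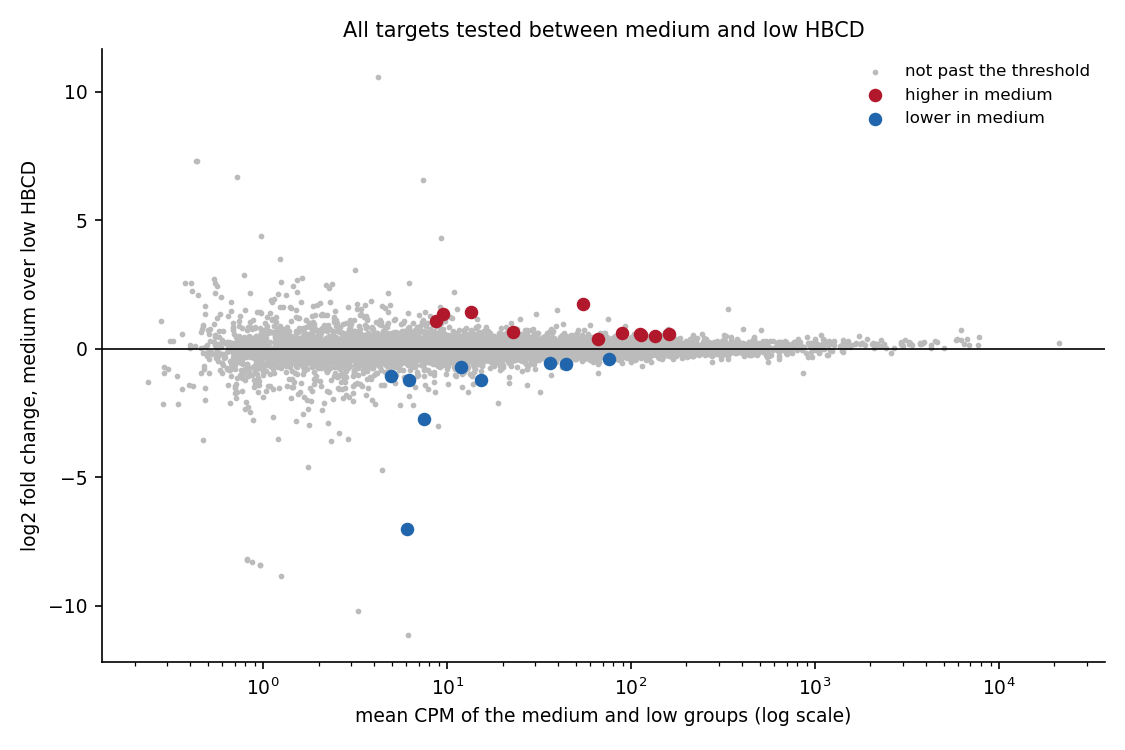
Log2 fold change of medium over low HBCD (edgeR) against the mean CPM of the 2 groups on a log scale, one point per tested target. The 11 targets higher in medium (red) and the 9 lower (blue) lie within the range of CPM of the grey targets, and many grey targets of low CPM lie farther from 0.

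Most targets of large fold change were not called, though a larger share was called than over all targets, as a test of the fold change favours. Of 313 targets with a log2 fold change of at least 1 in size, 9 were called (2.88%), against 0.151% of all targets. In 274 of the 313 the medium and low libraries overlapped, while 1.88% of all targets were without overlap. Of 74 targets with a size of at least 2, 2 were called (2.70%) and 61 had overlapping libraries. The median SE was 1.10 and 1.46 on the log2 scale in these sets, against 0.15 over all targets and 0.11 among the 20 called. By level, the 3321 targets with the fewest counts (up to 9.83 CPM) had a median SE of 0.31 and 6 calls, 2 higher and 4 lower. The 3321 with the most counts (from 65.4 CPM) had a median SE of 0.10 and 7 calls, 6 higher and 1 lower. The sets of targets between them, by rising level, held 4 and 3 calls. Whether calls depended on level was not tested. The 95% interval of the difference lay within 2-fold to either side of its estimate for 91.3% of targets.

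The 2 higher targets of smallest p were abundant and changed by less than 1.5-fold. XP_021325113.1 had 146, 158, 165, 156 and 166 CPM in medium HBCD replicates A to E, against 103, 113, 118, 98.3 and 122 CPM in low HBCD replicates A to E. Every medium library lay above every low one. The solvent controls, at 121 to 131 CPM, lay below every medium library and overlapped the low ones. The level averaged 158 ± 8.07 CPM in medium and 111.0 ± 9.99 CPM in low HBCD (SD, n = 5 each), 1.43-fold higher in medium (log2 0.51, SE 0.07, edgeR adjusted p = 0.0119).

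XP_021325113.1 stands on 23 rows of the deposited table, and its rows did not move as one. Of the 23 rows, 13 had a higher mean in medium HBCD and 10 a lower one. In 2 rows the medium libraries lay all above the low ones, and in 1 row all below. Row 23 averaged 36.4 ± 6.72 CPM in medium and 12.0 ± 2.95 CPM in low HBCD, and row 12 averaged 13.6 ± 1.13 CPM in medium and 5.67 ± 0.944 CPM in low HBCD (SD, n = 5 each). Row 5 went the other way, with 4.53 ± 0.855 CPM in medium and 8.68 ± 2.69 CPM in low HBCD (SD, n = 5 each). Row 23 had the largest difference in mean CPM of the 23 rows. It held 23.0% of the level in medium and 10.8% in low HBCD. Solvent control replicate B held 33.9 CPM in row 23, within the range of the medium libraries, against 1.42 to 6.95 CPM in the other controls. In row 12 the controls, at 4.95 to 8.90 CPM, lay below every medium library. When each row was tested by itself, 18 rows were kept, and 1 of them, row 12, was called (log2 fold change 1.26, SE 0.16, edgeR adjusted p = 0.0110). Row 23 differed by 1.60 (log2, SE 0.58, edgeR adjusted p = 0.402). Where rows are similar in sequence, estimated counts divide reads among them, and their split is less certain than their sum. Whether these rows are similar was not tested.

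A2BHJ4, on a single row, had 136, 118, 123, 141 and 154 CPM in medium HBCD replicates A to E, against 83.1, 94.1, 98.3, 97.0 and 89.4 CPM in low HBCD replicates A to E. The groups did not overlap, and the solvent controls, at 108 to 122 CPM, overlapped the medium and not the low libraries. The means were 134 ± 14.1 CPM in medium and 92.4 ± 6.21 CPM in low HBCD (SD, n = 5 each), a 1.46-fold difference (log2 0.54, SE 0.08, edgeR adjusted p = 0.0119). With only the 10 libraries of the 2 doses in the fit, its adjusted p was 0.0543 (edgeR), and over 30 alternatives it ranged from 2.21e-08 (DESeq2) to 0.0602.

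The 2 lower targets of smallest p were less abundant and differed more. XP_021327233.1 had 2.33, 1.77, 1.77, 1.39 and 2.50 CPM in medium HBCD replicates A to E, against 18.9, 12.2, 13.1, 12.4 and 8.07 CPM in low HBCD replicates A to E. The low libraries stood apart from all others, since the solvent controls lay at 1.20 to 4.54 CPM. The level averaged 1.95 ± 0.456 CPM in medium and 12.9 ± 3.88 CPM in low HBCD (SD, n = 5 each), 6.62-fold lower in medium (log2 -2.73, SE 0.37, edgeR adjusted p = 0.0119).

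XP_021327233.1 stands on 3 rows, and medium and low HBCD differed in how its counts were shared among them. Row 1 held 79.5% of the level in medium and 19.9% in low HBCD. It averaged 1.56 ± 0.386 CPM in medium and 2.58 ± 1.45 CPM in low HBCD (SD, n = 5 each), and its libraries overlapped (log2 -0.73, SE 0.37, edgeR adjusted p = 0.574 in the fit on single rows). Row 2 averaged 0.370 ± 0.211 CPM in medium and 8.59 ± 2.74 CPM in low HBCD (SD, n = 5 each), and was the row that was called (log2 -4.50, SE 0.78, edgeR adjusted p = 0.0332). Row 3 averaged 0.0309 ± 0.0691 CPM in medium and 1.77 ± 0.354 CPM in low HBCD (SD, n = 5 each), without overlap, and had an edgeR adjusted p of 0.234. The difference of the sum thus lay mostly in row 2. Solvent control replicate A held 1.90 CPM in row 2 and 1.91 CPM in row 3, against at most 0.755 and 0.0928 CPM in the other controls. Its value in row 3 lay within the low range of 1.36 to 2.29 CPM.

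**Figure D3:**
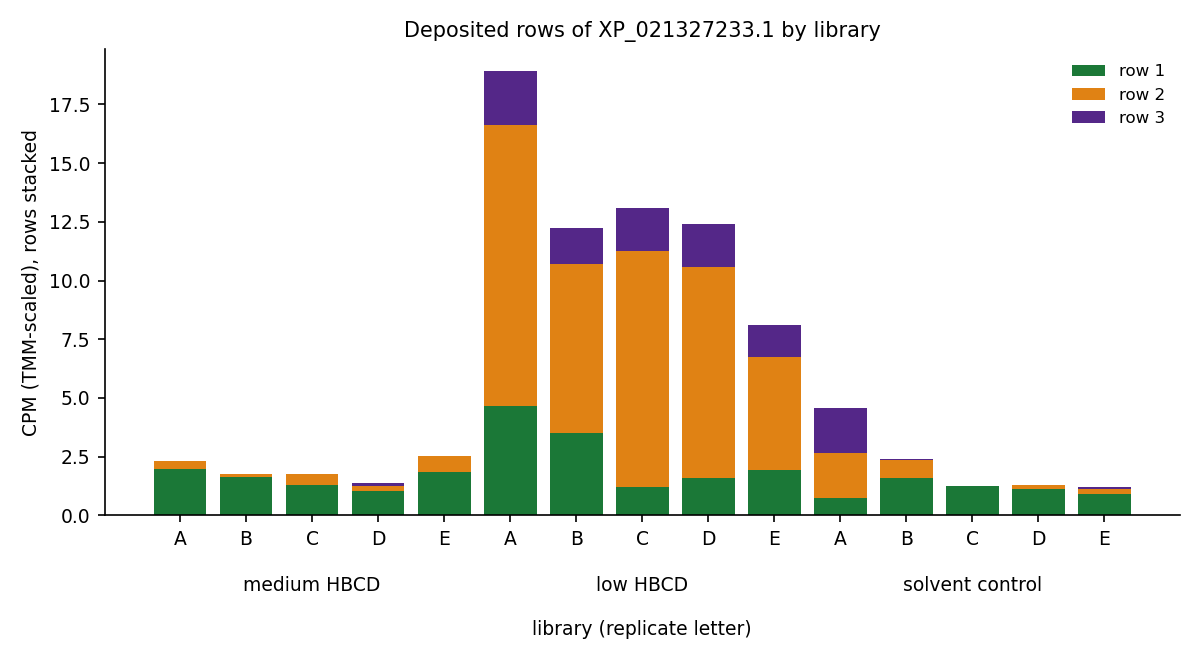
Level of XP_021327233.1 in each library (CPM), with its 3 deposited rows stacked, for medium HBCD, low HBCD and solvent control from left to right. Row 2 (orange) averaged 0.370 CPM in medium and 8.59 CPM in low HBCD, while row 1 (green) averaged 1.56 and 2.58 CPM.

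XP_009300617.1 had 6.08, 11.7, 12.5, 8.38 and 7.81 CPM in medium HBCD replicates A to E, against 22.6, 23.1, 18.3, 20.7 and 22.5 CPM in low HBCD replicates A to E. Medium HBCD replicates B and C, which stood apart on the first component, held the highest medium values, still below every low library. The controls, at 12.8 to 19.2 CPM, lay above all medium libraries and overlapped the low ones. The means were 9.30 ± 2.71 CPM in medium and 21.4 ± 1.98 CPM in low HBCD (SD, n = 5 each), 2.31-fold lower in medium (log2 -1.21, SE 0.18, edgeR adjusted p = 0.0119). With only the 10 libraries of the 2 doses in the fit, its adjusted p was 0.0543 (edgeR), and over 29 alternatives it ranged from 3.16e-08 (DESeq2) to 0.0572.

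**Figure D4:**
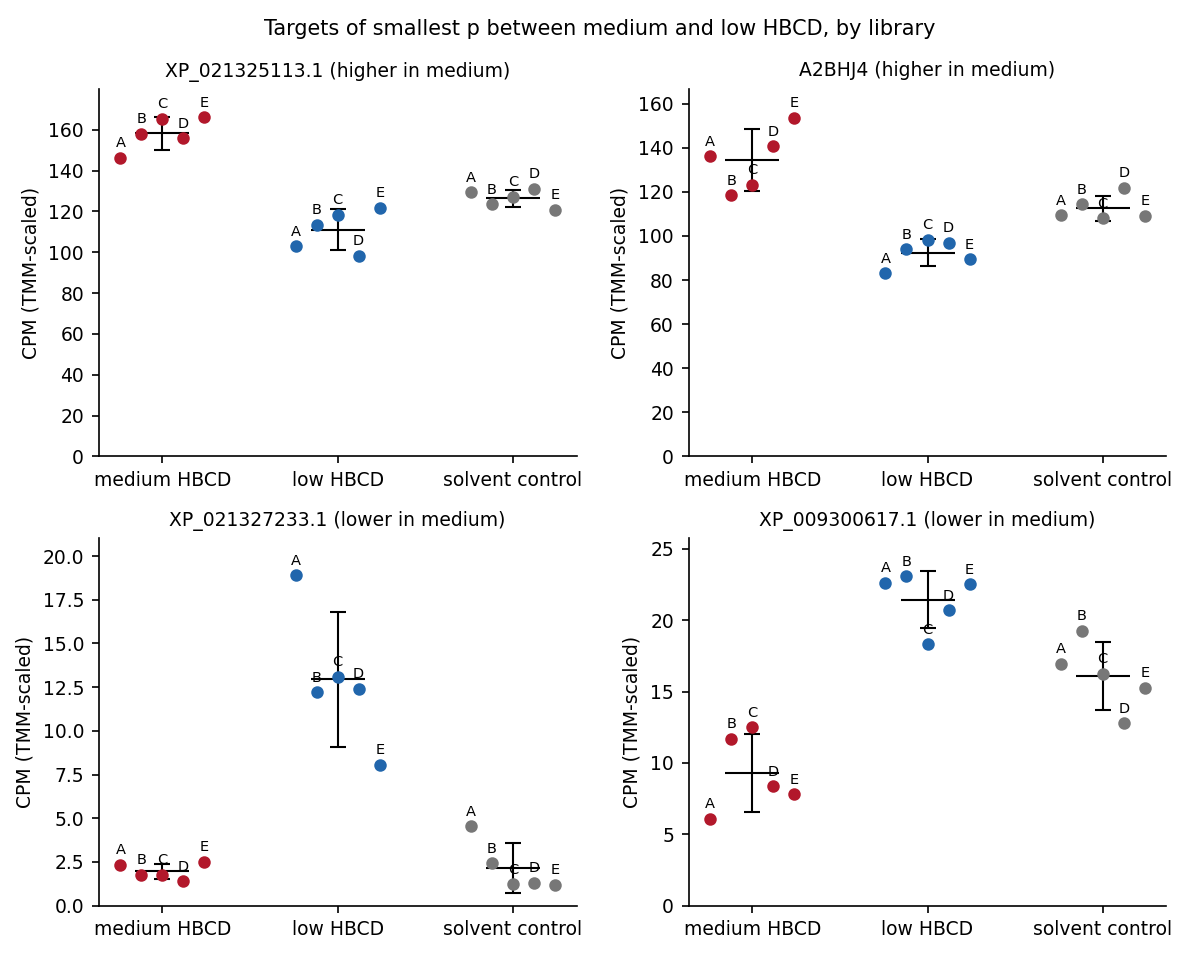
CPM of the 4 targets named by identifier in each library (points, with the replicate letter), for medium HBCD, low HBCD and solvent control from left to right, with the mean and SD of each group as black lines. Medium and low libraries do not overlap in any of the 4 panels, and in XP_021327233.1 the low libraries, from 8.07 to 18.9 CPM, lie above both other groups.

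Against the solvent control the doses lay on different sides for some of these targets. The fit gave XP_021325113.1 a log2 fold change of 0.33 (95% interval 0.19 to 0.47) in medium and -0.19 (-0.33 to -0.05) in low HBCD. The values for A2BHJ4 were 0.26 (0.10 to 0.42) in medium and -0.28 (-0.45 to -0.12) in low HBCD. For XP_009300617.1 they were -0.79 (-1.17 to -0.42) in medium and 0.42 (0.05 to 0.78) in low HBCD. None of these 6 differences passed the edgeR adjusted threshold, with adjusted p from 0.150 to 0.580. XP_021327233.1 had -0.10 (-0.88 to 0.67) in medium and 2.62 (1.83 to 3.41) in low HBCD, where the edgeR adjusted p was 0.979 and 0.0311. Among the targets without an identifier here, the higher one of rank 4 passed in medium HBCD (log2 1.18, 95% interval 0.85 to 1.52, edgeR adjusted p = 0.0132). The higher ones of ranks 10 and 11 passed in low HBCD (log2 -1.76, -2.30 to -1.23, and -0.73, -0.97 to -0.49, with edgeR adjusted p = 0.0311 and 0.0464). Both doses were set against the same controls, so their differences are not independent of each other. The targets were also chosen for a small p between the doses, which favours doses on different sides of the control.

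Among the other 9 higher targets, those of ranks 4 and 5 had low libraries near the controls and medium libraries above both. The target of rank 5 had the largest fold change of the 11, with 69.9, 121, 98.9, 68.0 and 63.1 CPM in medium HBCD replicates A to E, against 25.5, 21.3, 24.7, 27.6 and 24.9 CPM in low HBCD replicates A to E. It was 3.39-fold higher in medium (log2 1.76, SE 0.26, edgeR adjusted p = 0.0119), and medium HBCD replicates B and C were its highest libraries. Of the controls, 4 lay at 20.01 to 29.0 CPM and solvent control replicate A at 54.0 CPM. The target of rank 4 had 9.32 to 15.7 CPM (median 10.5) in medium and 4.79 to 6.23 CPM (median 5.69) in low HBCD, with controls at 4.41 to 6.17 CPM, and was 2.13-fold higher in medium (log2 1.09, SE 0.16, edgeR adjusted p = 0.0119). Rank 7, at 25.2 to 32.7 CPM in medium and 13.6 to 21.7 CPM in low HBCD, had controls of 17.9 to 20.2 CPM and a difference of 0.67 (log2, SE 0.12, edgeR adjusted p = 0.0355).

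In the higher targets of ranks 8 to 11 the low libraries were the ones that lay apart from the controls. Rank 8 had 145 to 229 CPM in medium and 116 to 138 CPM in low HBCD, with controls at 175 to 205 CPM. The target of rank 9 had 14.998, 28.6, 24.8, 14.987 and 15.5 CPM in medium HBCD replicates A to E, against 6.47, 6.76, 9.12, 8.41 and 5.22 CPM in low HBCD replicates A to E. Its controls spanned 11.1 to 24.0 CPM, overlapping the medium and not the low libraries. Rank 10 had 7.39 to 19.4 CPM in medium and 3.70 to 6.15 CPM in low HBCD, with controls at 12.3 to 26.3 CPM. Rank 11 had 98.5 to 119 CPM in medium and 49.8 to 84.7 CPM in low HBCD, with controls at 111 to 128 CPM. Their log2 fold changes between the doses were 0.59, 1.44, 1.37 and 0.61 for ranks 8, 9, 10 and 11, with edgeR adjusted p from 0.0355 to 0.0492.

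As in A2BHJ4 and the higher targets of ranks 8 to 11, the controls of the remaining 2 overlapped the medium and not the low libraries. Rank 3 had 116 to 152 CPM in medium and 79.2 to 96.3 CPM in low HBCD (log2 0.56, SE 0.08, edgeR adjusted p = 0.0119), with controls at 98.9 to 118 CPM. Rank 6 had 70.8 to 79.0 CPM in medium and 54.6 to 60.4 CPM in low HBCD, with controls at 64.5 to 72.9 CPM. It had the smallest fold change of the 20, 1.29-fold (log2 0.37, SE 0.06, edgeR adjusted p = 0.0141).

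Among the other 7 lower targets, that of rank 6 was near 0 in medium HBCD. It had 0, 0, 7, 0 and 0 counts in medium HBCD replicates A to E, against 266, 236, 289, 381 and 108 counts in low HBCD replicates A to E. All the medium counts thus came from replicate C. The level was 0.113 ± 0.252 CPM in medium and 12.0 ± 3.69 CPM in low HBCD (SD, n = 5 each, edgeR adjusted p = 0.0168). The fitted log2 fold change of -7.00 depends on the prior count of the fit and gives no size. The controls also held a library near 0, replicate B with 1 count, while the other 4 held 71 to 447 counts, so a library near 0 also occurred without HBCD. The call was lost without medium HBCD replicate A, D or E.

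The lower targets of ranks 7 and 9 were scarce. Rank 7 had 2.41 to 3.62 CPM in medium and 5.45 to 7.53 CPM in low HBCD, with controls at 4.69 to 8.86 CPM (log2 -1.08, SE 0.18, edgeR adjusted p = 0.0334). Rank 9 had 2.85 to 4.60 CPM in medium and 6.31 to 11.9 CPM in low HBCD, with controls at 6.499 to 12.1 CPM (log2 -1.20, SE 0.22, edgeR adjusted p = 0.0473). In both the controls lay above every medium library and overlapped the low ones. The same held for rank 5, at 8.15 to 9.76 CPM in medium, 12.3 to 17.2 CPM in low HBCD and 12.4 to 15.01 CPM in the controls (log2 -0.70, SE 0.11, edgeR adjusted p = 0.0141).

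The lower targets of ranks 3, 4 and 8 had controls between the means of the doses. Rank 3 had 28.1 to 30.6 CPM in medium and 38.9 to 45.2 CPM in low HBCD, with controls at 29.9 to 40.4 CPM (log2 -0.55, SE 0.08, edgeR adjusted p = 0.0119). Rank 4 had 31.3 to 39.6 CPM in medium and 43.3 to 58.7 CPM in low HBCD, with controls at 37.0 to 44.3 CPM (log2 -0.61, SE 0.09, edgeR adjusted p = 0.0141). Rank 8 had 58.4 to 73.6 CPM in medium and 78.3 to 92.4 CPM in low HBCD, with controls at 72.5 to 79.0 CPM (log2 -0.39, SE 0.07, edgeR adjusted p = 0.0414). In all 3 the controls overlapped both doses.

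**Figure D5:**
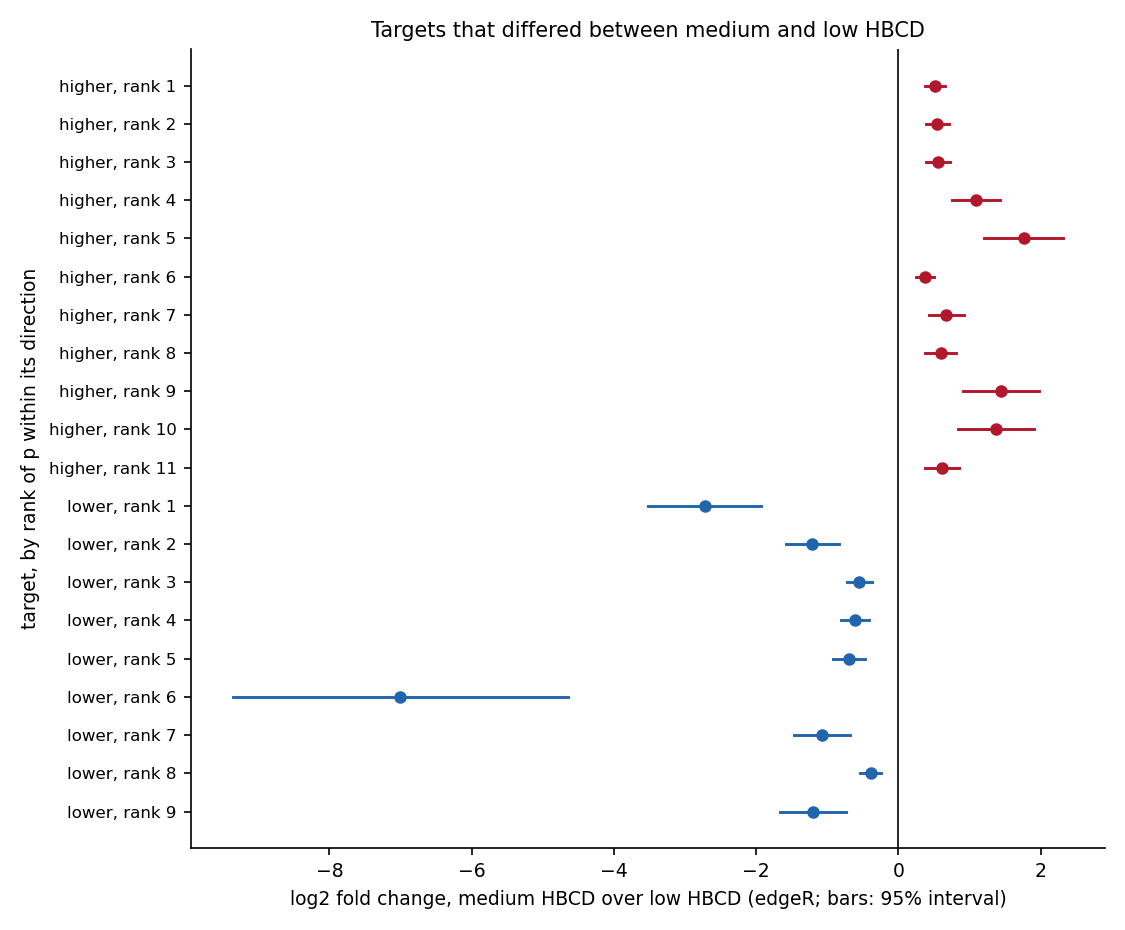
Log2 fold change of medium over low HBCD for the 20 called targets (edgeR, points) with 95% intervals (bars), ordered by rank of p within the higher (red) and the lower (blue) direction. The 11 higher targets lie between 0.37 and 1.76, and the lower target of rank 6, at -7.00, has an estimate that depends on the prior count.

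The 20 targets were unequal in how far their calls rested on single libraries. The higher targets of ranks 1 to 5 and the lower targets of ranks 1 to 3 kept their calls when any 1 of the 15 libraries was left out, 8 in all. The higher target of rank 6 was lost without low HBCD replicate D, the lower target of rank 4 without medium or low HBCD replicate D, and that of rank 5 without medium HBCD replicate D. The higher targets of ranks 7 to 11 and the lower targets of ranks 7 to 9 were each lost in at least 7 of the 10 fits that left out a library of either dose, and all 8 were lost without medium HBCD replicate D and without low HBCD replicate D, the deepest library of each group. The sign of the fold change of each of the 20 targets was the same in all 28 alternatives that gave it. In the fit on the 10 libraries of the 2 doses, the calls that were kept were the higher targets of ranks 1 and 5 and the lower targets of ranks 1, 3 and 6. Without medium HBCD replicates B and C, the higher targets of ranks 6 to 9 and 11 lost their calls. So did the lower targets of ranks 7 and 9 (edgeR adjusted p from 0.0579 to 0.146 over all of these). Replicates B and C were the highest medium libraries in the higher targets of ranks 6 to 9, but not in that of rank 11. They were also the highest in that of rank 5, which kept its call without them (edgeR adjusted p = 0.0449). Why calls were lost was not tested.

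The median level of the 20 targets was 29.4 CPM, against 27.95 CPM over all tested targets. RefSeq identifiers were 10 of the 20 (50.0%) and 41.8% of all tested targets. More than 1 deposited row stood behind 4 of the 20, and behind 793 of all 14279 identifiers before the filter. These shares were not tested against each other. Within groups, the median coefficient of variation of a tested target was 14.9% in medium HBCD, 16.3% in low HBCD and 13.7% in the solvent control.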

How the data were processed

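Trim Galore, kallisto and DESeq2 stand in the submitters' processing notes without versions, and the sources used here name no reference for kallisto. The authors deposited estimated counts per row and library, not normalized, on 15551 rows, and 793 identifiers stood on 2065 rows. These were summed per identifier and rounded. Changes were tested with edgeR 4.0.16 in R 4.3.3: TMM, filterByExpr, robust quasi-likelihood F test, Benjamini-Hochberg over 13283 targets, threshold 0.05, all 15 libraries in 1 fit without covariates. SE and 95% intervals come from the F statistic. The filter kept 99.98% of counts. The common biological coefficient of variation came to 0.273. This is spread beyond counting error, and with 1 library per pool it does not separate pools from the making of libraries. The test was checked on simulated counts, drawn independently for each target and library. They held no libraries that stood apart from their group, so the check cannot show how such libraries affect the calls. Distances and components used log2 CPM with a prior count of 2. Within-dose pairs of libraries differed by at least 12.7 times sampling noise (chi-square per degree of freedom), so none was counted as a duplicate.

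Targets named by identifier are the 2 of smallest p in each direction. The comparison, this rule and the lists were chosen with earlier results of these data known. The authors' 2 deposited tables of comparisons with the control were not used here. Alternatives were DESeq2 1.42.0, limma-voom (limma 3.58.1), sva 3.50.0, other scalings, filters, dispersions and sets of libraries.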

Additional observations from a re-analysis of the deposited data

Results flagged for a closer look

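A library far from the other 4 of its group was searched for in 69 sets of 5 libraries (the 3 library measures and the CPM of the 20 called targets, in each of the 3 groups). In 2 of the sets the gap of the farthest library exceeded 0.71 of the range, which chance passes in about 1 of 20 sets. The lower target of rank 6 had 0.564 CPM in medium HBCD replicate C and 0 CPM in the other 4 medium libraries. The higher target of rank 5 had 54.0 CPM in solvent control replicate A, against 20.01 to 29.0 CPM in the other 4 controls.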

How the results depend on the processing

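Beside the 20 calls of edgeR on all libraries, DESeq2 called 148, limma-voom with sample quality weights 38, and edgeR with 1 surrogate variable 62. A fit on the 10 libraries compared gave 9 calls, and there were 13 without solvent control replicates D and E and 37 without medium HBCD replicates B and C, a setting chosen after the data were seen. Other scalings, filters, non-robust dispersions, a threshold of 0.10, limma-voom and rows as deposited stayed within 1.5 times. Of the 18 calls of limma-voom 15 were among the 20, as were all 17 with non-robust dispersions. The other scalings and filters kept all 20. Leaving out 1 library gave 9 to 22 calls, and 894 to 1769 targets at an unadjusted p under 0.05, the highest without low HBCD replicate B, against 1170 with all libraries. Quality weights gave 1759 such targets. Targets without overlap numbered 249 to 292 over 3 alternatives, against 250. With the letter as a replicate block 4 targets were called, 3 of them among the 20. Between medium and low libraries, same-letter deviations correlated between -0.06 and 0.15, with 1 of 5 above 0.1. Of the 5 medium libraries 1, replicate D, was closest to its own letter. The controls, which the block also covers, were not in this check, and whether the letters mark a batch was not tested. Over 29 alternatives XP_021325113.1 lay between 0.47 and 0.55 and XP_021327233.1 between -2.85 and -2.55 on the log2 scale, and neither lost its call. A2BHJ4 lay between 0.50 and 0.64 over 30 alternatives and XP_009300617.1 between -1.52 and -1.09 over 29. Both lost their call with the replicate block (edgeR adjusted p = 0.0602 and 0.0572) and in the fit on 10 libraries (0.0543 each). The 3 named targets on several rows have no value for rows as deposited. Why the calls changed between these settings was not tested.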
